A study of Mus musculus with 36 samples.

Results

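Dlx1 and Dlx2 encode homeodomain transcription factors of the distal-less family, and Dlx1as is a noncoding RNA read from the strand opposite Dlx1. They are 3 of the 23847 gene entries, with 23361 distinct names, measured by RNA sequencing of whole embryonic mouse gut. The genes were chosen from values in these data: Dlx1 and Dlx1as stood lower in the libraries that lack Ret RNA than in wild-type libraries at E12.5 and E14.5, and Dlx2, their neighbour of the same family, is described with them. For that reason the genotype differences at these stages are given below as levels, with no test.

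The 36 libraries form 12 groups of 3. Guts were taken from C57BL/6J embryos labelled homozygous Ret null or wild type, at stages given in days of gestation (E10.5, E12.5 or E14.5), and each group is labelled female or male. Ret encodes the receptor tyrosine kinase that enteric neural crest cells need to colonise and survive in the gut. The labels describe neither the Ret allele nor pooling of guts, and nothing in them ties the 3 libraries of a group to different embryos. The p-values below therefore reflect only how far these samples vary, and part of that variation may be technical.

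Dlx1 and Dlx2 lie side by side, pointing towards each other, an arrangement that the mammalian Dlx pairs share. In the ventral forebrain of the mouse they act redundantly to drive the differentiation and migration of GABA-releasing interneurons, and in the first pharyngeal arch they pattern the upper jaw. In the gut, Dlx1 and Dlx2 are known from developing neurons of the enteric nervous system, the neural crest-derived network within the gut wall. Whole gut is a mixture in which neurons are a minority, so fewer cells that express a gene and less RNA per cell cannot be told apart.

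Ret RNA did not follow the labels in every library. Of the 18 libraries labelled Ret null, 11 held under 1 FPKM of Ret and 7 held 4.74 to 6.49 FPKM, against 2.11 to 13.3 FPKM in the 18 wild-type libraries. FPKM counts sequenced fragments relative to transcript length and to the depth of the library. The 7 libraries labelled Ret null with Ret RNA were all 3 E10.5 females, E12.5 male 2, E14.5 females 1 and 3 and E14.5 male 1. "Labelled Ret null" is therefore used throughout, and values are given by Ret level as well as by label. In 4 libraries the sex RNA (Xist and Ddx3y) went at least partly against the labelled sex, and these are the libraries left out for that reason below. E10.5 female 3 and male 1 labelled Ret null carried mainly RNA of the other sex. E12.5 wild-type females 1 and 2 carried both, with Xist at 49.1 and 52.2 FPKM and Ddx3y at 4.91 and 4.98 FPKM. In 4 pairs of libraries the values agreed within counting noise, so both libraries were replaced by their mean, counted once, which left 32 samples. Depth, read from the width of the authors' intervals, was 4.85 to 40.9 M (mega) fragments per library. Dlx1 rested on 5.6 to 370 such fragments per library (median 67.4), Dlx1as on 8.5 to 313 (median 51.8) and Dlx2 on 6.6 to 291 (median 74.6), counted in the 34, 33 and 34 libraries, in the same gene order, whose interval lay above 0. The other libraries, all labelled Ret null males without Ret, have an interval that starts at 0 and no fragment value, so the lowest values are the least precise.

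In the deposited files (mm10), Dlx1 spans chr2:71529445-71533980 on the plus strand, Dlx1as chr2:71530638-71537891 on the minus strand, and Dlx2 chr2:71543408-71546754 on the minus strand. The Dlx1 and Dlx1as loci overlap over 3343 bases, or 73.7% of the Dlx1 locus. In the GENCODE annotation of the same build, exon 2 of a Dlx1as transcript (chr2:71532784-71533118) lies inside the 3′ UTR in exon 3 of Dlx1. The library kit named in the labels does not mark strand, so reads in these 335 shared bases cannot be assigned to Dlx1 or to its antisense RNA. Of the 75-base stretches of the GENCODE Dlx1 transcript, 75 bases being the read length, 6.54% occur in the GENCODE antisense transcripts. The exons counted for Dlx1as in the deposited files are not known. The shared part there may therefore be larger or smaller, within the 3343 bases of overlap. Dlx1 and Dlx2 share no stretch of that length.

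**Figure D1:**
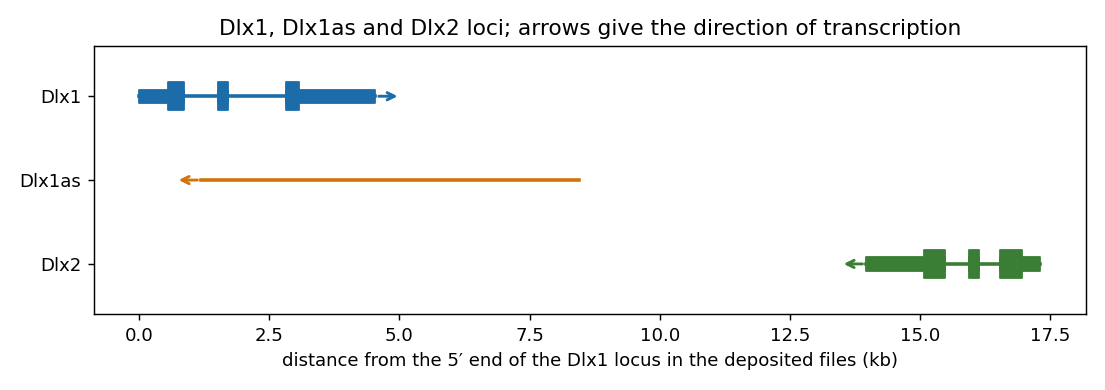
Loci of Dlx1, Dlx1as and Dlx2 along the chromosome, in kb from the 5′ end of the Dlx1 locus in the deposited files. Thin lines are loci, bars are exons of the GENCODE transcripts, tall bars their coding parts, and arrows give the direction of transcription. Dlx1as overlaps 73.7% of the Dlx1 locus on the other strand, and Dlx2 lies 9427 bases beyond the end of Dlx1, pointing towards it.

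The homeobox is where the coding sequences of Dlx1 and Dlx2 are most alike, and it is shown because it bears on whether reads of one gene could be counted for the other. Over the most similar 180 coding bases (coding bases 376 to 555 of Dlx1 and 457 to 636 of Dlx2), 134 bases are identical and 46 differ. The GENCODE transcript sequences are given 5′ to 3′, with capitals at the bases that differ.
Dlx1 homeobox: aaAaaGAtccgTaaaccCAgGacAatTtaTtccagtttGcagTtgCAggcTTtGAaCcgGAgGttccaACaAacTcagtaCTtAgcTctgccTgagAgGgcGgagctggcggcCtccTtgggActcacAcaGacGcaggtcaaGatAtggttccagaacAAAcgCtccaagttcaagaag
Dlx2 homeobox: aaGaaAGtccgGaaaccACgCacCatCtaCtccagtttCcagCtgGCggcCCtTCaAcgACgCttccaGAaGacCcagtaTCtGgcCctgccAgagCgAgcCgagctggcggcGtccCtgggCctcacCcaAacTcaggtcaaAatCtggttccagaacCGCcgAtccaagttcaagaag
The longest identical run between these windows is 15 bases, against a read length of 75. Reads from the homeoboxes can thus be told apart by sequence, while Dlx1 and Dlx1as reads from the exon bases they share cannot.

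The 250 bases before the RefSeq start of Dlx2 (GRCm38.p6, minus strand, chr2:71546755-71547004) are shown as the promoter of a gene whose level moved with that of its neighbour in these libraries. Capitals mark matches to CACGTG, a motif bound by basic helix-loop-helix factors, and to CCAAT, here on the opposite strand as ATTGG. Both strands were searched.
Dlx2 promoter: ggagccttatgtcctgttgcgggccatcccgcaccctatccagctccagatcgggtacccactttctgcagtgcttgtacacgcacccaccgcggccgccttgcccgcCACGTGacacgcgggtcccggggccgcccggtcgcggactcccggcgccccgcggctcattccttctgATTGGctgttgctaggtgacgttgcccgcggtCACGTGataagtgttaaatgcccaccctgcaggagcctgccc
CACGTG occurs at 142 and at 42 bases before the start, and 6.02% of 32851 mouse promoter windows of the same length hold it. CCAAT occurs once, 74 bases before the start, and 33.8% of the windows hold it. CAGCTG had no match in this window, nor had TATAAA, and TAATTA had none. The corresponding Dlx1 window holds none of the 5 motifs and lies within the 5′ UTR of the longer GENCODE transcript, so it is not printed. The GC content was 68.0% before Dlx1 and 66.4% before Dlx2, against a median of 52.4% over all windows.

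At E10.5 the libraries labelled Ret null stood above wild type in females and below it in males. Dlx1 stood at 1.78, 1.42 and 2.09 FPKM in females labelled Ret null and 0.342, 0.259 and 0.0278 FPKM in males labelled Ret null, against 0.601, 0.482 and 0.162 FPKM in wild-type females and 0.832, 1.02 and 0.893 FPKM in wild-type males. Dlx1as stood at 1.1, 1.52 and 1.62 FPKM in females labelled Ret null and 0.243, 0.371 and 0.0829 FPKM in males labelled Ret null, against 0.402, 0.520 and 0.129 FPKM in wild-type females and 1.05, 0.963 and 1.04 FPKM in wild-type males. Dlx2 stood at 2.65, 2.85 and 2.50 FPKM in females labelled Ret null and 0.498, 0.618 and 0.0944 FPKM in males labelled Ret null, against 1.21, 1.17 and 0.514 FPKM in wild-type females and 1.32, 1.77 and 1.21 FPKM in wild-type males. For each of the 3 genes, every female labelled Ret null lay above every wild-type female and every male labelled Ret null lay below every wild-type male. Of all 13165 genes tested, 20.8% were separated upwards in females, 15.0% downwards in males and 1.45% in both ways at once. The females labelled Ret null were the libraries that held Ret RNA, and the males labelled Ret null lacked it.

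With both sexes together, neither of the 2 members in the E10.5 fit was called, while 8.29% of all genes were called (limma on log2(FPKM + 1), adjusted p under 0.05). The difference, labelled Ret null minus wild type, was 0.11 (95% CI -0.19 to 0.41, adjusted p = 0.613, limma) for Dlx1as and 0.11 (95% CI -0.27 to 0.48, adjusted p = 0.695, limma) for Dlx2, both on the log2(FPKM + 1) scale, which understates changes of low genes. Dlx1 did not reach 1 FPKM in 3 samples of this fit and so was not in it. Dlx1as reached 1 FPKM only in females labelled Ret null and in wild-type males, the higher group of each sex. Its entry in the fit was thus not independent of the differences by sex, and all its E10.5 p-values here and below carry that limit. Taken by sex, the differences ran in opposite directions.

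In E10.5 females labelled Ret null, Dlx1as and Dlx2 rose, where 7.57% of all genes were called and 4.56% were called higher. Dlx1as was 0.94 higher (SE 0.193, adjusted p = 0.0304, limma) and Dlx2 0.99 higher (SE 0.241, adjusted p = 0.0470, limma) than in wild-type females. Without the filter on low values, Dlx1 was 1.08 higher (SE 0.175, adjusted p = 0.0307, limma). In E10.5 males labelled Ret null, neither member in the fit was called, and 0.106% of all genes were. The difference was -0.72 for Dlx1as (95% CI -1.13 to -0.32, unadjusted p = 0.00331, adjusted p = 0.121, limma) and -0.78 for Dlx2 (95% CI -1.28 to -0.27, unadjusted p = 0.00755, adjusted p = 0.162, limma). The female difference minus the male difference was 1.66 for Dlx1as (SE 0.261, adjusted p = 0.0740, limma) and 1.77 for Dlx2 (SE 0.327, adjusted p = 0.0956, limma). By limma this difference of differences was called in 0 of 13165 genes (0%), of which 2459 had an unadjusted p under 0.05.

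The calls in E10.5 females depended on single samples. Dlx1as lost its call without female sample 1 and 2 labelled Ret null (adjusted p = 0.0817, limma), without female 3 labelled Ret null (adjusted p = 0.0746, limma) and without wild-type female 3 (adjusted p = 0.111, limma). Dlx2 lost it without the same samples (adjusted p = 0.158, 0.0818 and 0.165, limma). Without the libraries whose sex RNA went against the label, both calls were lost (0.85 for Dlx1as, adjusted p = 0.117, and 1.04 for Dlx2, adjusted p = 0.122, limma). The difference of differences passed the threshold without wild-type female sample 1 and 2 (adjusted p = 0.0323 for Dlx1as and 0.0416 for Dlx2, limma), and also when every library was counted (adjusted p = 0.00322 and 0.00432, limma). Depth went with the group in females, at 9.36 to 10.9 M fragments in those labelled Ret null and 13.6 to 17.7 M fragments in wild type.

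Other tissue markers moved in the same female comparison. Smooth muscle genes, 8 of 10 measured, were higher in females labelled Ret null, and their summed level was 395 to 400 FPKM against 118 to 124 FPKM in wild-type females. Gut epithelium genes, 4 of 10, were also higher (Cldn7, Shh, Cdx2 and Epcam). Pharyngeal arch mesenchyme genes, 2 of 12 tested, were lower, Alx1 among them, at a summed 49.7 to 139 FPKM against 84.8 to 170 FPKM in wild-type females, and none of the 14 in the list was at 0 in all libraries of either group. Tbx4 and Tbx5, limb bud factors, were lower among 8 tested genes of limb and surface ectoderm, at a summed 7.80 to 9.22 FPKM for the list against 13.9 to 37.4 FPKM. The part of the dissected tissue mix in the Dlx values was not tested.

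At E12.5 the libraries labelled Ret null fell into a low set and 1 high library. Dlx1 stood at 0.183, 0.408 and 0.424 FPKM in females labelled Ret null and 0.418, 1.84 and 0.211 FPKM in males labelled Ret null, against 1.86, 2.40 and 2.06 FPKM in wild-type females and 3.18, 2.88 and 2.29 FPKM in wild-type males. Dlx1as stood at 0.132, 0.447 and 0.430 FPKM in females labelled Ret null and 0.374, 1.26 and 0.135 FPKM in males labelled Ret null, against 1.65, 1.62 and 1.58 FPKM in wild-type females and 2.18, 1.98 and 1.58 FPKM in wild-type males. Dlx2 stood at 0.157, 0.648 and 0.696 FPKM in females labelled Ret null and 0.575, 2.57 and 0.185 FPKM in males labelled Ret null, against 2.95, 2.66 and 2.63 FPKM in wild-type females and 3.39, 2.82 and 2.38 FPKM in wild-type males. The high library was male 2, the only E12.5 library labelled Ret null with Ret RNA, and for Dlx2 it lay within the wild-type range. In the 5 libraries without Ret, the highest value of each gene was below the lowest wild-type value. Of all 13182 genes, 1.30% were separated downwards in this way, and nothing is read from that share because the genes were chosen for this contrast. The difference, labelled Ret null minus wild type, was -1.18 for Dlx1, -0.95 for Dlx1as and -1.18 for Dlx2 on the log2(FPKM + 1) scale, and without male 2 it was -1.37, -1.09 and -1.41 for the same genes.

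At E14.5 the 6 libraries labelled Ret null split evenly by Ret. Dlx1 stood at 3.21, 0.372 and 2.61 FPKM in females labelled Ret null and 3.02, 0.0503 and 0.185 FPKM in males labelled Ret null, against 2.0, 2.78 and 1.77 FPKM in wild-type females and 2.34, 1.07 and 2.52 FPKM in wild-type males. Dlx1as stood at 2.63, 0.529 and 1.85 FPKM in females labelled Ret null and 2.80, 0.0999 and 0.0614 FPKM in males labelled Ret null, against 1.17, 2.20 and 0.982 FPKM in wild-type females and 1.90, 0.963 and 2.02 FPKM in wild-type males. Dlx2 stood at 3.79, 1.48 and 3.16 FPKM in females labelled Ret null and 3.85, 0.114 and 0.0701 FPKM in males labelled Ret null, against 1.82, 3.75 and 2.14 FPKM in wild-type females and 3.81, 1.02 and 2.16 FPKM in wild-type males. The 3 libraries labelled Ret null that held Ret (females 1 and 3, male 1) carried each Dlx gene at levels within or above the wild-type range, and the 3 without Ret lay below all wild-type libraries for Dlx1 and Dlx1as. Dlx2 differed from its neighbours in 1 library: female 2 labelled Ret null, which lacked Ret, held 1.48 FPKM, above wild-type male 2 at 1.02 FPKM. Over all 13861 genes, 9.44% were separated downwards between the libraries without Ret and wild type, a share from which nothing is read for genes chosen on this contrast. The difference by label was -0.48 for Dlx1, -0.29 for Dlx1as and -0.36 for Dlx2 on the log2(FPKM + 1) scale, and -1.29, -0.95 and -1.01 without the 3 libraries that held Ret.

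**Figure D2:**
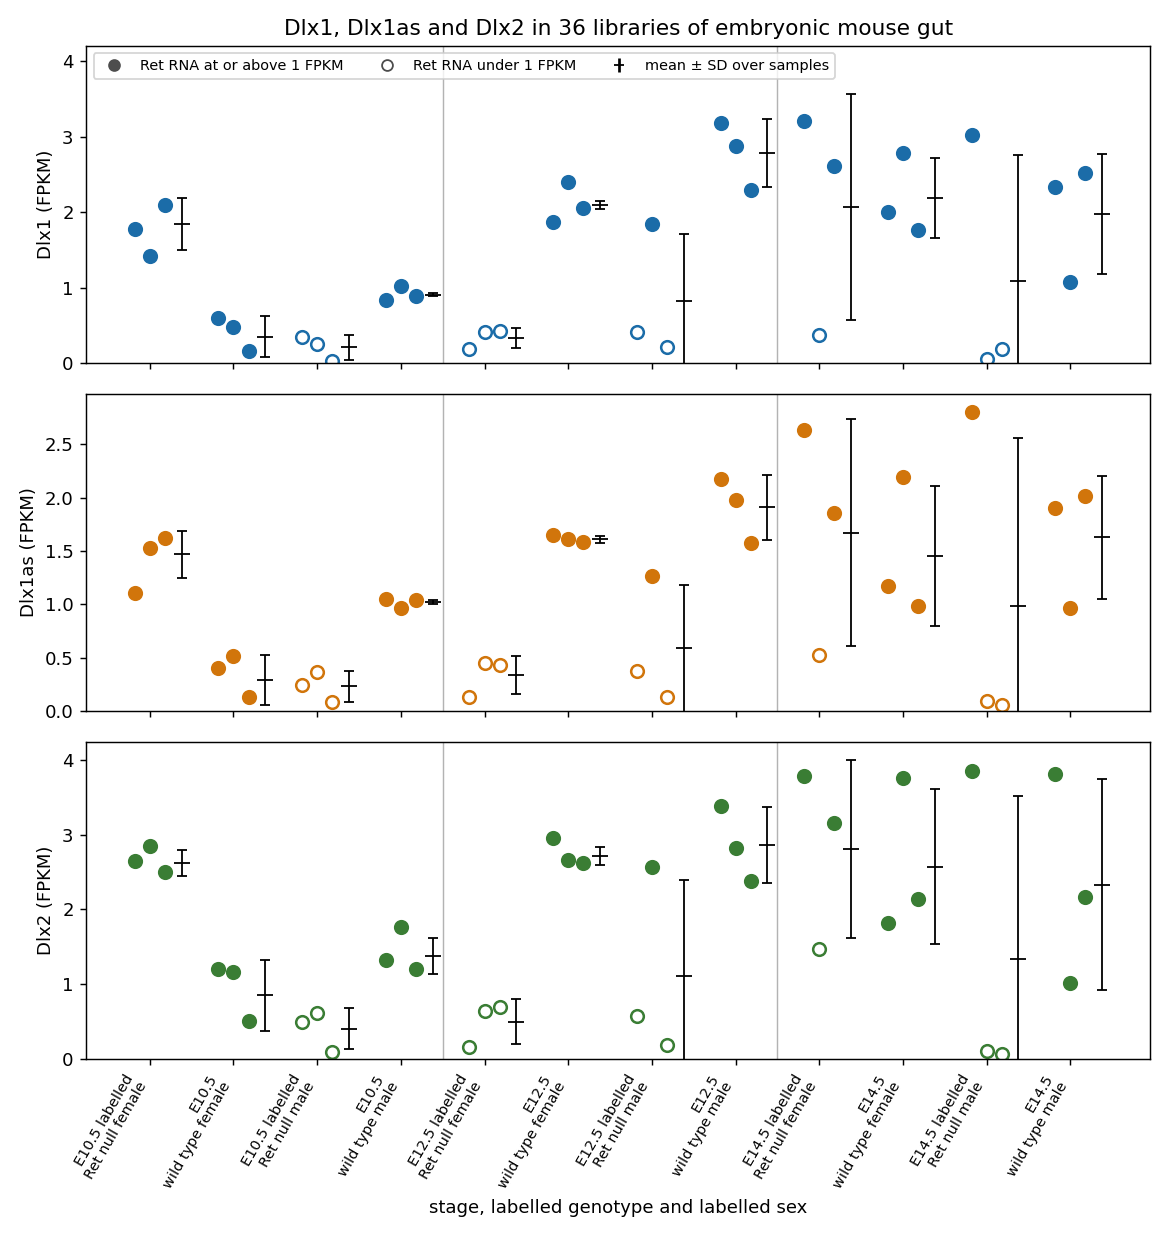
FPKM of Dlx1, Dlx1as and Dlx2 in each of 36 libraries, by stage, labelled sex and labelled genotype, with libraries labelled Ret null left of wild type. Filled points are libraries with Ret RNA at or above 1 FPKM, open points those under it, and black marks the mean ± SD over the samples counted, with bars ending at 0 where the SD passes it. Open points reach at most 0.424 FPKM for Dlx1 and 0.529 FPKM for Dlx1as, while Dlx2 has 1 open point at 1.48 FPKM.

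Across the 11 libraries without Ret, Dlx1 ranged between 0.0278 and 0.424 FPKM (median 0.259), Dlx1as between 0.0614 and 0.529 FPKM (median 0.243) and Dlx2 between 0.0701 and 1.48 FPKM (median 0.498). Across the 25 libraries with Ret, Dlx1 ranged between 0.162 and 3.21 FPKM (median 2.0), Dlx1as between 0.129 and 2.80 FPKM (median 1.58) and Dlx2 between 0.514 and 3.85 FPKM (median 2.57). The lowest of the 25 was wild-type E10.5 female 3 for each gene, which also had the lowest Ret of the wild-type libraries. Ordered by group mean, E12.5 wild-type males were highest for each gene, at 2.78 ± 0.453 FPKM of Dlx1, 1.91 ± 0.304 FPKM of Dlx1as and 2.86 ± 0.507 FPKM of Dlx2 (SD, n = 3). E10.5 males labelled Ret null were lowest for each gene, at 0.209 ± 0.163 FPKM of Dlx1, 0.232 ± 0.145 FPKM of Dlx1as and 0.404 ± 0.274 FPKM of Dlx2 (SD, n = 3). In between, the ranges of all 11 neighbouring pairs of groups overlapped for each gene, so the order between neighbours is not resolved. E14.5 males labelled Ret null, a group of 1 library with Ret and 2 without, had the widest spread for each gene, such as 1.08 ± 1.68 FPKM of Dlx1 (SD, n = 3).

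In wild-type gut the Dlx genes were higher at E12.5 than at E10.5 in every library. The E12.5 and E14.5 wild-type values also served to choose Dlx1 and Dlx1as, so differences between stages are given as descriptions, with no test. Dlx1 had a lowest, median and highest value of 1.86, 2.35 and 3.18 FPKM in the 6 E12.5 libraries, against 0.162, 0.717 and 1.02 FPKM in the 6 E10.5 libraries. Dlx1as had 1.58, 1.63 and 2.18 FPKM at E12.5, against 0.129, 0.742 and 1.05 FPKM at E10.5. Dlx2 had 2.38, 2.74 and 3.39 FPKM at E12.5, against 0.514, 1.21 and 1.77 FPKM at E10.5. The stages did not overlap for any of the 3 genes, and 3.76% of all 14321 genes were separated upwards in this way, a share from which nothing is read here. The difference, E12.5 minus E10.5, was 1.09 for Dlx1, 0.77 for Dlx1as and 0.86 for Dlx2 on the log2(FPKM + 1) scale. Among all genes, 4.57% were called by limma in this comparison and 2.75% were called higher. Of 13 crest progenitor and glial genes tested, 4 rose, among them Gfra1, Ednrb and Erbb3. Of the enteric neuron genes 0 of 20 were called, with 3 at an unadjusted p under 0.05, against 2672 of all 14321 genes. Etv1 was the 1 of 16 neurogenic factors that rose and Penk the 1 of 13 peptide and transmitter genes. In the other tissue lists, 8 of 10 smooth muscle genes rose and 1 fell, 6 of 10 gut epithelium genes rose and 4 of 13 pharyngeal arch genes tested fell, among them Alx1, Alx4 and Prrx2. The part of this change in tissue markers in the Dlx values was not tested. Depth went with the stage, at 22.8 to 30.8 M fragments at E12.5 and 6.85 to 17.7 M fragments at E10.5 in wild type.

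At E14.5 the wild-type levels of the Dlx genes spread over those of E12.5. Dlx1 had a lowest, median and highest value of 1.07, 2.17 and 2.78 FPKM in the 6 E14.5 libraries, Dlx1as 0.963, 1.54 and 2.20 FPKM and Dlx2 1.02, 2.15 and 3.81 FPKM. These ranges overlap those at E12.5 for each gene. The difference, E14.5 minus E12.5, was -0.17 for Dlx1, -0.15 for Dlx1as and -0.19 for Dlx2 on the log2(FPKM + 1) scale. The lowest E14.5 wild-type library for each gene was male 2, which also held the least Ret of that stage's wild-type libraries, 4.70 FPKM. Depth was 4.85 to 6.76 M fragments in the E14.5 wild-type libraries.

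Males and females of wild type did not differ beyond the threshold in any member at E10.5. At E10.5 the male minus female difference was 0.65 for Dlx1as (95% CI 0.21 to 1.1, unadjusted p = 0.00917, adjusted p = 0.0684, limma) and 0.38 for Dlx2 (95% CI -0.17 to 0.93, adjusted p = 0.316, limma), where 8.93% of all genes were called. Dlx1, fitted without the filter, was 0.51 higher in males (95% CI 0.10 to 0.93, adjusted p = 0.137, limma). At E12.5 and E14.5 the wild-type values also served to choose Dlx1 and Dlx1as, so sex differences there are descriptions, with no test. They were between -0.15 and 0.28, and 0.0152% and 0.0505% of all genes were called at these stages. Few samples were compared, so no absence of a sex difference at these stages is concluded from the values.

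**Figure D3:**
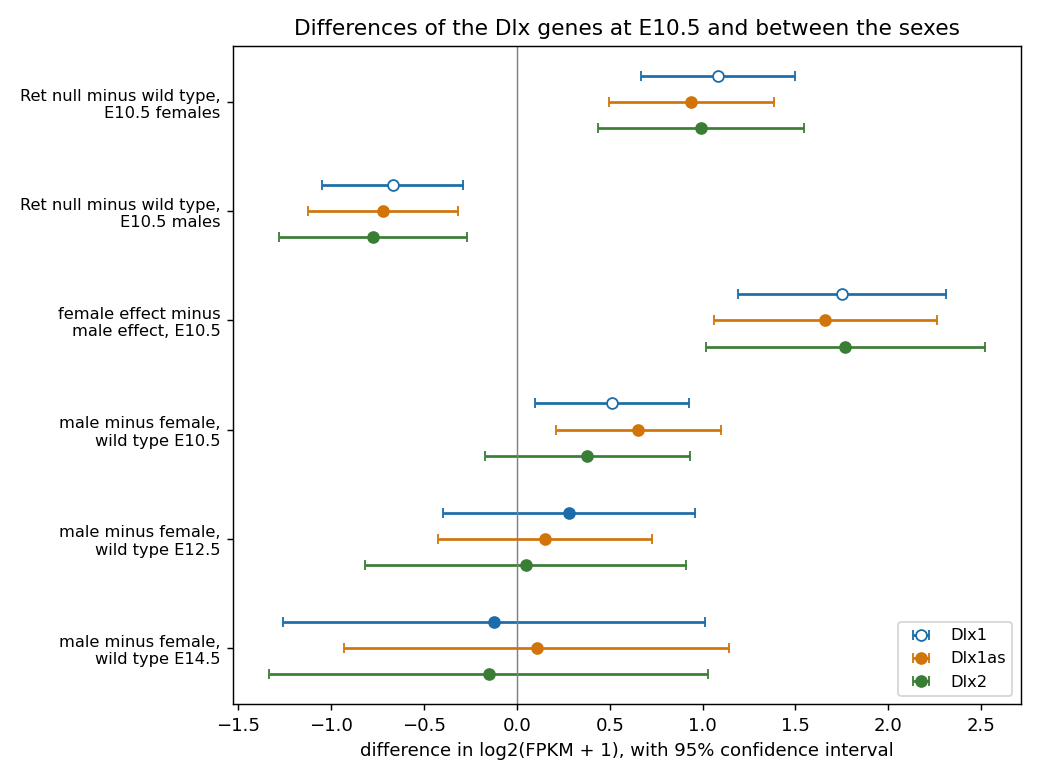
Differences of Dlx1, Dlx1as and Dlx2 on the log2(FPKM + 1) scale with 95% confidence intervals from limma, for the genotype comparison at E10.5 and for male minus female in wild type at each stage. Open points mark Dlx1 in fits without the filter on low values, since it was not in the filtered E10.5 fit. The E10.5 differences between libraries labelled Ret null and wild type lie above 0 in females, near 1, and below 0 in males, near -0.7. The sex differences at E12.5 and E14.5, within wild-type libraries that also served to choose Dlx1 and Dlx1as, are descriptions. Their intervals are not read as tests.

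Per unit of length, Dlx2 was usually the most abundant of the 3 RNAs. The level of Dlx2 over that of Dlx1 had a median ratio of 1.36 over 36 libraries and was above 1 in 29. The level of Dlx1as over that of Dlx1 had a median ratio of 0.798 and was above 1 in 10, of which 6 were among the 11 libraries without Ret. The highest of these ratios, in males labelled Ret null, E10.5 male 3 (2.98) and E14.5 male 2 (1.99), rest on values whose intervals start at 0. E14.5 male 3 of that label, also near 0, went the other way at 0.33. Over the 15 wild-type samples, log2(FPKM + 1) of Dlx1 correlated with that of Dlx1as at Pearson r = 0.956 and with that of Dlx2 at r = 0.917, and Dlx2 with Dlx1as at r = 0.906. These values are descriptions over samples that share stage and depth, and Dlx1 and Dlx1as also share reads.

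A regulator of the enteric crest lineage, Sox10, was among the genes whose patterns were most like those of Dlx1as and Dlx2. Ranked by Pearson r of log2(FPKM + 1) over the 15 wild-type samples among 14321 genes, the first 5 for Dlx1 included Sec1 (r = 0.962), Fam184b (0.960), Rundc3b (0.960) and Lrig1 (0.943). Those for Dlx1as included Fam184b (0.957), Rundc3b (0.942) and Sox10 (0.936), and those for Dlx2 included Nell2 (0.933), Sox10 (0.905), Mgat3 (0.900) and Tshz1 (0.897). Sox10 is a transcription factor of crest progenitors and glia. Over all 32 samples, which add those labelled Ret null, Fam184b stayed at r = 0.966 with Dlx1 and Sox10 at 0.953 with Dlx2. With Dlx1, Sec1 was at only 0.06 and Lrig1 at 0.17 over the 32 samples, and with Dlx2, Mgat3 was at 0.12 and Tshz1 at 0.09.

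The lists of enteric genes moved in the same libraries as the Dlx genes. At E12.5, without the library labelled Ret null that held Ret, 5 of 20 enteric neuron genes were lower and 0 higher, with a list median of -1.01 against 0.01 for all genes, where 0.259% of all genes were called. Tagln3 was 0.89 lower (SE 0.083, adjusted p = 0.00722, limma) and Elavl4, an RNA-binding protein of neurons, 1.74 lower (SE 0.205, adjusted p = 0.0127, limma). Of 11 crest progenitor and glial genes tested, 3 were lower, Foxd3, Sox8 and Sox10. Of 10 peptide and transmitter genes tested, 3 were lower, the peptide genes Cartpt, Cck and Gal. At E14.5, without the 3 libraries labelled Ret null that held Ret, 15 of 20 enteric neuron genes were lower and 0 higher, with a list median of -1.96 against 0.03 for all genes, where 8.61% of all genes were called and 4.65% were called lower. Tubb3, neuronal tubulin, was 3.71 lower (SE 0.321, adjusted p = 0.00321, limma). Among 15 neurogenic factors 6 were lower and 2 higher, with Tlx2 2.82 lower.

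In E10.5 females, where the libraries labelled Ret null held Ret, enteric neuron, crest progenitor and glial, and peptide genes rose beside the higher Dlx levels, some of each list. There, 7 of 20 enteric neuron genes rose and 0 fell, with a list median of 1.26 against -0.01 for all genes, and the nicotinic receptor subunits Chrna3 and Chrnb4 were 2.11 and 1.44 higher. In crest progenitor and glial genes, 5 of 11 rose, led by Ednrb (1.46 higher) and Fabp7 (1.63 higher), and Cartpt and Gal rose among 10 peptide and transmitter genes. Of 16 neurogenic factors 1 rose, Hand2, where 4.56% of all genes were called higher. In E10.5 males, 0 of 20 enteric neuron genes were called by limma, where 0.106% of all genes were. Of the 20, 13 had an unadjusted p under 0.05, against 2309 of all 13165 genes, with a list median of -0.96.

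Relative to the summed FPKM of 20 enteric neuron genes, the Dlx genes also stood lower at E12.5 without Ret than in wild type. The 20 neuron genes summed to 45.4 to 167 FPKM in the 5 E12.5 libraries without Ret, 262 FPKM in the 1 labelled Ret null that held Ret, and 187 to 256 FPKM in wild type. Per 1000 FPKM of that sum, Dlx1 was at 2.54 to 4.65 in the libraries without Ret, 7.01 in the 1 labelled Ret null that held Ret, and 8.41 to 13.8 in wild type. Dlx1as per 1000 FPKM was at 2.15 to 3.60 without Ret, 4.82 with Ret and 6.48 to 9.47 in wild type, and Dlx2 at 2.55 to 5.53 without Ret, 9.81 with Ret and 10.7 to 15.3 in wild type. At E14.5 the sum was 40.6 to 77.1 FPKM without Ret, 332 to 383 FPKM in the libraries labelled Ret null that held Ret, and 163 to 402 FPKM in wild type. Per 1000 FPKM, Dlx1 was then at 1.24 to 4.82 without Ret, 6.83 to 9.64 with Ret and 5.08 to 8.12 in wild type. The other 2 genes overlapped wild type at E14.5: Dlx1as was at 1.5 to 6.85 without Ret, 4.84 to 8.16 with Ret and 2.97 to 6.59 in wild type, and Dlx2 at 1.71 to 19.2 without Ret, 8.25 to 11.4 with Ret and 4.63 to 13.2 in wild type, its highest ratio being that of female 2. At E10.5, Dlx1 per 1000 FPKM was at 0.489 to 3.02 without Ret, 5.60 to 9.98 with Ret and 2.24 to 6.26 in wild type, and Dlx1as at 1.46 to 2.77 without Ret, 4.42 to 7.76 with Ret and 1.78 to 6.36 in wild type, so libraries without Ret overlapped wild type for both. Dlx2 was at 1.66 to 4.62 without Ret, 10.6 to 11.9 with Ret and 4.92 to 10.8 in wild type at E10.5, which left those without Ret below wild type. The ratios depend on the genes summed. Tubb3, a member of the list, was at 0.593 to 12.4 FPKM in the 5 E12.5 libraries without Ret and 21.3 to 44.2 FPKM in wild type. Relative to Tubb3 alone, Dlx1 was not lower than in wild type in each of these 5 libraries. A fall of the Dlx genes beyond a loss of neurons was therefore not shown, and it was not tested. Since the genotype contrast at E12.5 and E14.5 was used to choose the genes, these ratios are descriptions.

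**Figure D4:**
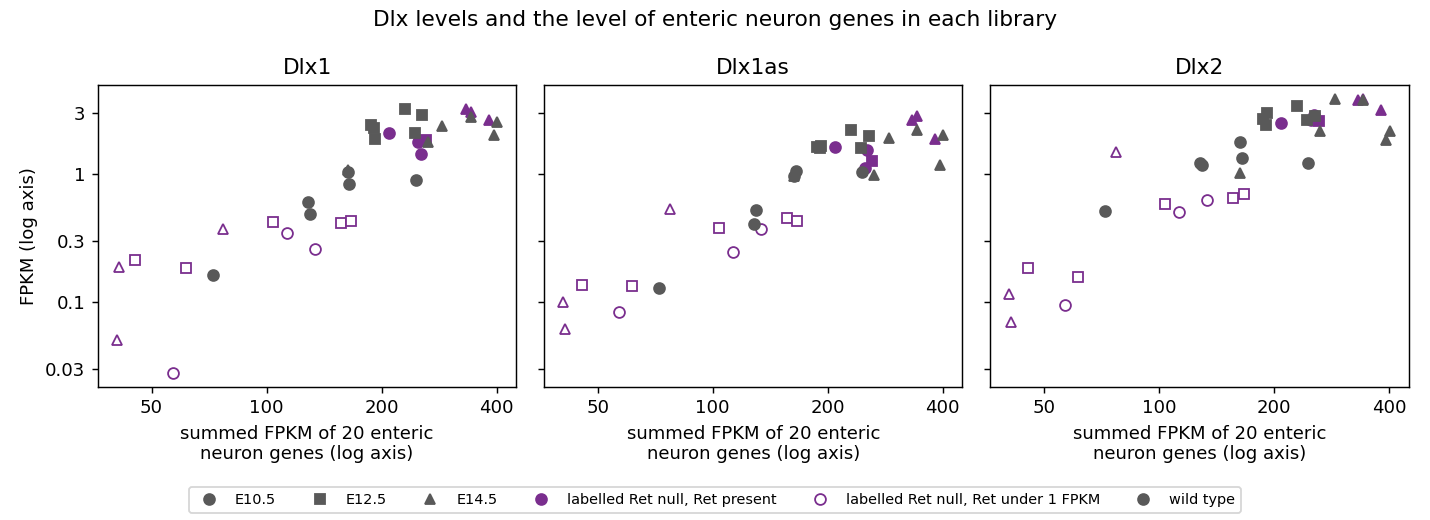
FPKM of Dlx1, Dlx1as and Dlx2 against the summed FPKM of 20 enteric neuron genes in 36 libraries, on log axes. Purple points are libraries labelled Ret null, filled with Ret RNA and open without, and grey points are wild type; circles, squares and triangles are E10.5, E12.5 and E14.5. Libraries without Ret lie at sums of 40.6 to 167 FPKM, and the filled purple points lie among wild type.

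The other Dlx genes were low in most libraries. Dlx3, Dlx4, Dlx5, Dlx6, Dlx6as1 and Dlx6as2 summed to 0.219 to 0.716 FPKM in the 5 E12.5 libraries without Ret and 0.490 to 1.81 FPKM in 6 wild-type libraries. Dlx5 had 0.117, 0.255 and 0.400 FPKM (lowest, median and highest) in those libraries without Ret, 0.602 FPKM in the 1 labelled Ret null that held Ret, and 0.384, 0.774 and 1.25 FPKM in wild type, so the sets without Ret and of wild type overlapped slightly. Only Dlx5 reached the filter in any of the fits reported here, and its E14.5 difference was 0.05 (SE 0.294, adjusted p = 0.913, limma) by label and 0.28 (SE 0.275, adjusted p = 0.509, limma) without the 3 libraries that held Ret. Female 2 labelled Ret null, without Ret, held 4.33 FPKM of Dlx5, 1.72 FPKM of Dlx6 and 1.74 FPKM of Dlx3, against at most 2.20, 0.715 and 1.15 FPKM for the same genes in the other 11 E14.5 libraries. The other 2 E14.5 libraries without Ret held 0.0712 and 0.108 FPKM of Dlx5. Dlx5 and Dlx6 pattern the lower jaw in the pharyngeal arches. In the same library 11 of 14 pharyngeal arch mesenchyme genes were above all 11 other E14.5 libraries, among them Msx1 at 4.67 FPKM against at most 1.71 FPKM. Alx1, Pitx1 and Tbx22 were not. Of 10 limb and surface ectoderm genes, 3 were. The share over all genes was not computed, so nothing is read from these counts. The summed level of the pharyngeal arch mesenchyme list was 78.7 to 179 FPKM in E14.5 females labelled Ret null and 87.1 to 99.6 FPKM in males labelled Ret null. In wild type it was 27.4 to 91.0 FPKM in females and 41.3 to 84.3 FPKM in males. The part of the dissected tissue mix in the Dlx2 value of 1.48 FPKM was not tested.

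**Figure D5:**
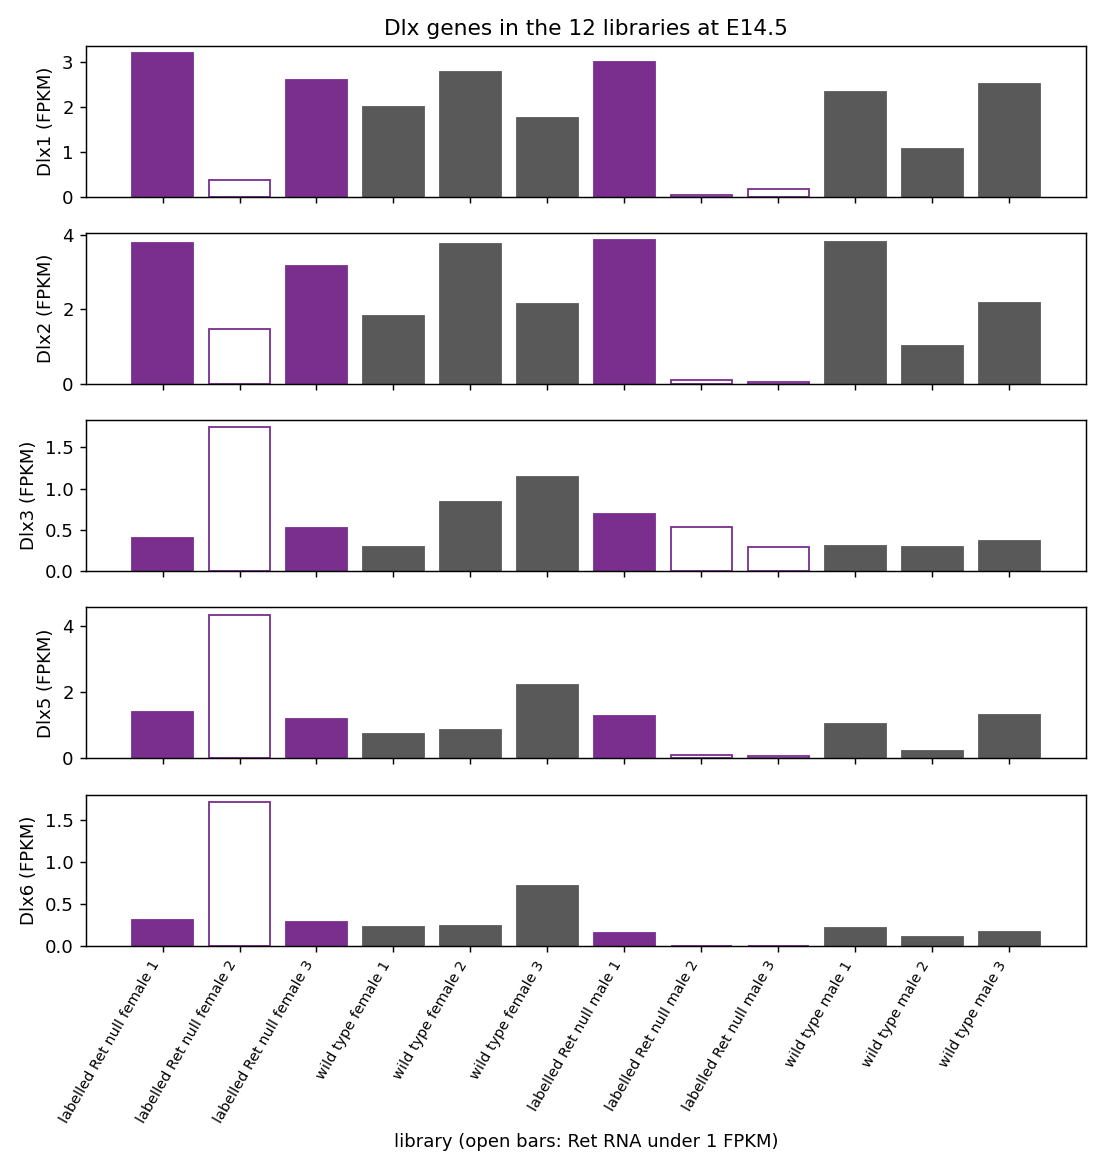
FPKM of Dlx1, Dlx2, Dlx3, Dlx5 and Dlx6 in the 12 E14.5 libraries, each panel with its own axis from 0. Purple bars are libraries labelled Ret null and grey bars wild type; open bars have Ret RNA under 1 FPKM. Female 2 labelled Ret null is highest for Dlx3, Dlx5 and Dlx6 and low for Dlx1, at 0.372 FPKM.

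Genes next to the Dlx pair on the chromosome were described in the same comparisons. The 8 neighbours on either side, Cybrd1, Dync1i2, Slc25a12, Hat1, Metap1d, Itga6, Pdk1 and Rapgef4, lie 4.3 to 434.5 kb away and summed to between 133 and 167 FPKM in every library, of which Dync1i2 held 48.9 to 62.5 FPKM and Hat1 28.2 to 58.3 FPKM, while Cybrd1 ranged between 1.17 and 8.44 FPKM. Between E14.5 and E12.5 in wild type, 4 of 8 rose (Pdk1, Cybrd1, Itga6 and Slc25a12, by 0.22 to 0.92 on the log2(FPKM + 1) scale) and 2 fell (Hat1 and Dync1i2), where limma called 58.9% of all genes. By label at E14.5, 1 of 7 tested was lower, Pdk1 (log2 difference -0.22, adjusted p = 0.0436, limma), where 15.7% of all genes were called. Without the 3 libraries that held Ret, 0 of 7 were called by limma, where 8.61% of all genes were. Of these 7, 0 had an unadjusted p under 0.05, against 4274 of all 13728 genes. At E12.5 without the library that held Ret, 0 of 8 were called by limma, where 0.259% of all genes were. Of these 8, 0 had an unadjusted p under 0.05, against 1033 of all 13120 genes, with differences between -0.09 and 0.10. In E10.5 females Hat1 was lower by 0.46 (adjusted p = 0.0212, limma) and Metap1d, the nearest to Dlx1, was 0.41 higher (adjusted p = 0.0304, limma) in those labelled Ret null. Limma called 7.57% of all genes in that comparison, so nothing about the locus is read from these 2 calls.

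Several partners of Dlx1 and Dlx2 in forebrain interneurons were at very low levels in gut. Of 21 genes of that network in the files, 10 stayed under 1 FPKM in all 36 libraries. Among them were Gad1 and Gad2, the enzymes that make GABA, and Slc32a1, its vesicular transporter. Of all 23847 entries, 12578 to 13644 reached 1 FPKM in a library. The share under 1 FPKM in all 36 was not computed, so nothing is read from the count. Other members were well expressed, and the list summed to between 161 and 276 FPKM in every library. Gad1 reached at most 0.131 FPKM and Gad2 at most 0.131 FPKM in any library.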

How the data were processed

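RNA was measured by poly(A) RNA sequencing in 36 gut libraries. The authors deposited 1 table per library with a gene-level FPKM value, its interval and a status for each gene, per the file headers. Per the submitters' processing notes, TopHat2, Picard, Cufflinks and Cuffdiff were used with mm10. The sources used here give no versions or settings and do not say whether libraries were scaled to each other. Samples were grouped by labelled stage, genotype and sex. Read counts were not analysed; fragments per gene were inferred from the width of the authors' intervals.

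Library pairs whose spread was at most 1.1 times the counting noise, with at most 1% of genes beyond 3 SD, were averaged. At E10.5 these were females 1 and 2 labelled Ret null, and in wild type females 1 and 2 and males 3 and 4. At E12.5 they were wild-type females 1 and 2. Differences were fitted on log2(FPKM + 1) with limma 3.58.1 in R 4.3.3, with a mean-variance trend, two-sided, and Benjamini-Hochberg adjustment over all genes with FPKM of 1 or more in at least 3 samples of the fit. Each stage was fitted with its 4 groups, and stages with all 12 groups. The procedure was first tested on simulated data.

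The 3 Dlx genes, the marker lists and the tests were chosen with earlier results of these data known. Besides the Dlx genes and Ret, the text names the called members of each list with the smallest p, every member of the Dlx family and neighbour lists, and the 5 genes most correlated with each Dlx gene in wild type; a few further genes and single libraries were named after their values were seen. Some genes that this rule names are not reported here. Sequences came from GENCODE transcripts and RefSeq promoters of GRCm38. Alternatives were another pseudocount, no filter, every library counted, median-ratio scaling, no trend, a replicate block, a fit of wild type only, leaving out samples, and leaving out libraries with Ret or sex RNA against the label.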

Additional observations from a re-analysis of the deposited data

Results flagged for a closer look

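In 7 of 36 sets of samples (6 Dlx genes in each labelled genotype at each stage), 1 sample stood far from the rest of its set by Dixon's criterion at 95%. The sets are not independent, since the genes were measured in the same libraries, so this count is not set against a chance rate. Low values of Dlx1 and Dlx1as in libraries without Ret at E12.5 and E14.5 also served to choose these genes. In the E12.5 libraries labelled Ret null, only male 2 held Ret RNA, so its distance from the rest follows in part from that choice. All values below are therefore a description, and the criterion serves only to list them. The E12.5 male 2 labelled Ret null, which held Ret RNA, was such a sample for Dlx1 at 1.84 FPKM, against 0.183 to 0.424 FPKM in the other 5 libraries of that label and stage. It was also one for Dlx1as at 1.26 FPKM, against 0.132 to 0.447 FPKM, and for Dlx2 at 2.57 FPKM, against 0.157 to 0.696 FPKM.

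The E14.5 female 2 labelled Ret null, without Ret RNA, stood apart for Dlx3 at 1.74 FPKM, Dlx5 at 4.33 FPKM and Dlx6 at 1.72 FPKM. The other 5 libraries of that label and stage reached at most 0.696 FPKM of Dlx3, 1.41 FPKM of Dlx5 and 0.313 FPKM of Dlx6. The E14.5 wild-type female 3 stood apart for Dlx6 at 0.715 FPKM, against at most 0.237 FPKM in the other wild-type libraries of that stage.

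At E10.5 the difference between libraries labelled Ret null and wild type ran upwards in every female and downwards in every male. The female minus male difference was 1.75 on the log2(FPKM + 1) scale for Dlx1 without the filter (adjusted p = 0.0860, limma), 1.66 for Dlx1as (adjusted p = 0.0740, limma) and 1.77 for Dlx2 (adjusted p = 0.0956, limma), so it did not pass the threshold for any of them. Within the libraries labelled Ret null at this stage, labelled sex and the presence of Ret RNA coincide and cannot be told apart. Sex RNA did not coincide with them in 2 libraries: female 3, with male sex RNA, held 5.76 FPKM of Ret and 2.09 FPKM of Dlx1, and male 1, with female sex RNA, held 0.0217 FPKM of Ret and 0.342 FPKM of Dlx1.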

How the results depend on the processing

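Over all alternatives, no called Dlx difference changed its direction. The calls of Dlx1as and Dlx2 in E10.5 females were lost in 5 and 6 of 11 alternatives (adjusted p of up to 0.117 and 0.165, limma), and no other Dlx difference tested with the filter was called in the settings reported first. Counting every library, the E10.5 male differences were called for Dlx1as (adjusted p = 0.0167, limma) and Dlx2 (adjusted p = 0.0255, limma), as was the E10.5 wild-type sex difference of Dlx1as (adjusted p = 0.0106, limma). The libraries without Ret hold few Dlx fragments, which limits the precision of their values. The cause was not tested for any of the changes below.

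Counts of called genes moved by over 1.5 times as follows. With every library counted they were 3774 (E10.5), 4485 (E10.5 females), 931 (E10.5 males), 1917 (E10.5 difference between sexes), 0 (E12.5), 1829 (E12.5 minus E10.5) and 4323 (sex at E10.5). Without libraries labelled Ret null with Ret RNA they were 68 (E10.5 and E10.5 males), 34 (E12.5) and 1182 (E14.5), against 1091, 14, 1 and 2175 with them. Without libraries with sex RNA against the label they were 184 (E10.5), 21 (E10.5 females), 36 (E10.5 males), 9 (difference between sexes), 2 (E12.5), 264 (E12.5 minus E10.5), 519 (sex at E10.5) and 7 (sex at E12.5); at E14.5 no such library exists and this was not run. Without the filter they were 625 (E10.5), 1 (E10.5 males), 1 (difference between sexes), 607 (sex at E10.5) and 5 (sex at E12.5). With no trend they were 22 (E10.5 males), 0 (E12.5), 606 (sex at E10.5) and 1 (sex at E12.5), with a pseudocount of 0.1 they were 8 (E10.5 males) and 1 (difference between sexes), and in wild type alone 386 (E12.5 minus E10.5).

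Same-numbered libraries did not deviate together (4 of 16 pairs over a correlation of 0.1, range -0.33 to 0.37), so the numbers name samples only. With the replicate number as a block and every library counted, the counts were 939 (E10.5), 3853 (E10.5 females), 189 (E10.5 males), 688 (difference between sexes), 0 (E12.5), 1122 (E14.5), 801 (E12.5 minus E10.5) and 8928 (E14.5 minus E12.5), and the difference between sexes then passed the threshold for Dlx1as (1.69, adjusted p = 0.0240, limma) and Dlx2 (1.92, adjusted p = 0.0152, limma).

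Leaving out 1 sample at a time, a lone sample being taken to vary like the other groups, gave 179 to 1268 called genes at E10.5, 267 to 921 in females, 0 to 22 in males, 0 to 139 for the difference between sexes, 0 to 34 at E12.5, 669 to 3554 at E14.5, 298 to 735 for E12.5 minus E10.5, 7450 to 8475 for E14.5 minus E12.5, 0 to 681 for sex at E10.5, 1 to 7 at E12.5 and 7 to 11 at E14.5.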
